A study of Mus musculus with 2 samples.

Results

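Keratins are the intermediate filament proteins of epithelial cells. Each filament is built from pairs of an acidic type I and a basic type II keratin. Simple, single-layered epithelia hold KRT8 with KRT18, and often KRT7, KRT19 or KRT20, whereas the basal cells of stratified epithelia hold KRT5 with KRT14, and often KRT15 or KRT17. KRT13 is known from the upper layers of internal stratified epithelia. In the urothelium both sets are found, and KRT20 marks its mature superficial cells.

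Described here are 10 keratin genes on microarrays of cultured mouse ureters. Krt7, Krt8, Krt18, Krt19 and Krt20 were taken as the 5 simple keratins, and Krt5, Krt13, Krt14, Krt15 and Krt17 as the 5 basal and stratified keratins. They were found by the gene name of non-control probes, which gave 13 probes for the 10 of 29924 gene names on the array. The array carried 52 keratin genes in all, of which 42 were other keratins.

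To learn how WNT activation acts on the early ureter, ureters of wildtype NMRI embryos, of undetermined sex, were explanted at E12.5 and cultured for 18 h without serum. The BIO group received 10 µM BIO (6-bromoindirubin-3-oxime), a GSK3 inhibitor that activates canonical WNT signaling, and the control group received its solvent DMSO at 2 parts per 1000. Each RNA came from a pool of whole ureters, so that epithelium, mesenchyme and vessels were measured together, and with 2 arrays, each holding a control and a BIO pool, there are 2 replicates. The BIO RNA was labeled red in replicate 1 and green in replicate 2. Of the biological spots, between 70.1% and 80.9% were well above background in each channel, and the green channel had the higher share on both arrays. In such bulk RNA, fewer cells of a type and less RNA per cell cannot be told apart.

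The probes are 60 bases long and were designed on transcripts, so each lies in exons. The sequences of the probes of Krt7, Krt8, Krt19, Krt13 and Krt14 that hold no AATAAA are shown because the results turn on what they bind. For Krt13, 1 probe gave no signal while the other did. The sequences run 5′ to 3′ along the transcript, with positions in mm9.
Krt7, chr15:101253718-101253777, plus strand: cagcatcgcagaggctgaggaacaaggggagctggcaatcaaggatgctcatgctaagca
Krt8 (second probe), chr15:101828827-101828886, minus strand: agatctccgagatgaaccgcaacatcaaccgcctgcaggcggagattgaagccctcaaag
Krt19, chr11:100002392-100002451, minus strand: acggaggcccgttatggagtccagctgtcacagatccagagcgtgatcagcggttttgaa
Krt13 (first probe), chr11:99982471-99982530, minus strand: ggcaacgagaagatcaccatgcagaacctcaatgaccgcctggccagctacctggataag
Krt13 (second probe), chr11:99980412-99980471, minus strand: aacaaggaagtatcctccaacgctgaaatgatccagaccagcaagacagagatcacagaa
Krt14, chr11:100064683-100065288, minus strand: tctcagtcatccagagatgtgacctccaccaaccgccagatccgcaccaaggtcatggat
The Krt14 probe crosses a splice junction, since its 60 bases span 606 bases of the genome. The first probes of Krt8 (chr15:101827138-101827197, minus strand) and Krt5 (chr15:101537514-101537573, minus strand) and the Krt17 probe (chr11:100117535-100117594, minus strand) hold the polyadenylation signal AATAAA. The remaining probes lay at chr15:101862341-101862400 on the plus strand for Krt18, chr11:99993331-99993390 on the minus strand for Krt15, chr11:99289776-99289835 on the minus strand for Krt20 and chr15:101542056-101542115 on the minus strand for the second probe of Krt5.

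With loess normalization, the main processing, 4 of the 5 simple keratins passed as lower with BIO, while no keratin among the 10 rose past the threshold. By limma over all probes tested, with a Benjamini-Hochberg adjusted p below 0.05, 5 of the 10 genes fell, which were Krt7, Krt8, Krt18 and Krt19 of the simple set and Krt13 of the other set. Of the rest, 4 were tested without passing and Krt17 was not tested. Among the 21598 genes tested, 23.9% passed in either direction and 14.8% passed as lower. Of the simple keratins, 4 of 5 were lower with BIO, against 1 of the 4 basal and stratified keratins tested. The median log2 ratio of BIO over control was -0.91 for the simple set and -0.15 for the other set, and -0.01 for all genes tested. Without the filter on dim probes, which adds Krt17, the median of the basal and stratified set was 0.0945, so that its direction turned. On the separate arrays the simple set had medians of -1.12 and -0.69 and the other set -0.08 and -0.18, so that the simple set was the lower on both. Only 2 arrays stood behind the difference between the sets, and no test of it was made. The sets also differed in signal. The tested probes of Krt5, Krt14 and Krt15 read at most 64.9 in any channel, where the offset added in background correction pulls ratios toward 0. Krt7, Krt8, Krt18 and Krt19 read at least 528, while Krt20 was dim too. The gene behind the Krt13 signal is uncertain, as described below. The calls also depended on the processing. In the deposited scores, described below, none of the 5 lower genes passed, whereas Krt5 and Krt14 passed as higher.

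**Figure D1:**
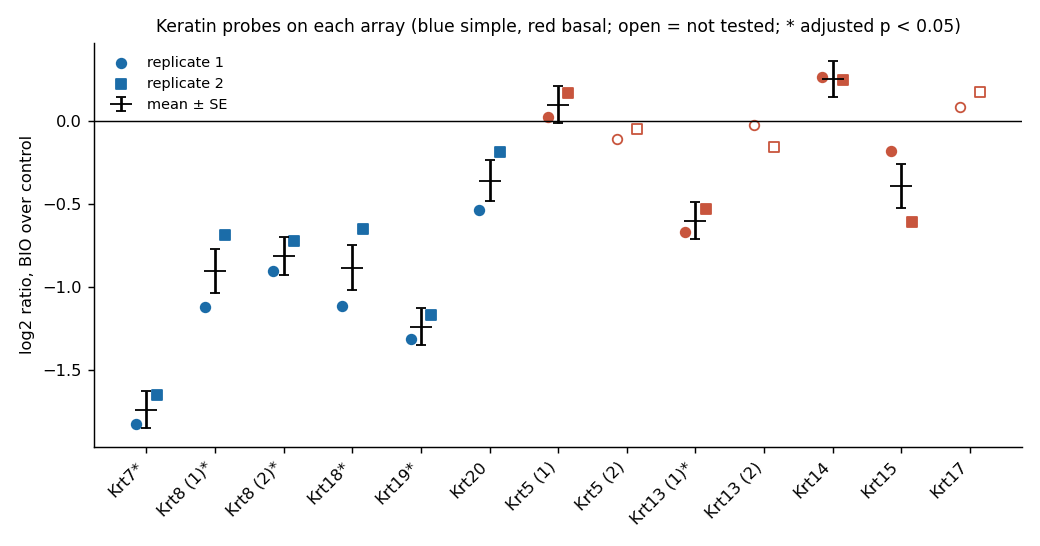
Log2 ratio of BIO over control for each of the 13 probes of the 10 keratin genes, with 1 point per array and the mean ± SE for tested probes (blue, simple; red, basal and stratified; open, not tested; asterisk, adjusted p below 0.05). Krt7 lies lowest at -1.74, and Krt5 and Krt14 are the tested genes above 0 on both arrays. The SE is the moderated one of limma, not the spread of the 2 points.

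Krt7, the type II keratin of many ductal and glandular epithelia and of the urothelium, showed the largest change of the 10 genes. Its processed signal, the background-subtracted and dye-normalized intensity, was 1895 in control and 528 in BIO in replicate 1, and 2020 in control and 640 in BIO in replicate 2. Both BIO values lay below both control values. The log2 ratio was -1.74 ± 0.11 (SE, n = 2 arrays), or 3.34-fold lower with BIO, with a limma adjusted p of 6.45e-05. Each SE in this report is the moderated one of limma, which draws on the variance of all probes tested. It is not the spread of the 2 arrays, whose ratios can lie further apart or closer together.

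Krt19, a small type I keratin without a tail domain, had processed signals of 2551 in control and 1055 in BIO in replicate 1, and of 2545 and 1153 in replicate 2. The control values were nearly equal, and both BIO values were below them. The log2 ratio was -1.24 ± 0.11 (SE, n = 2), or 2.36-fold lower, with a limma adjusted p of 2.20e-04. The log2 ratio of Krt7 minus that of Krt19 was -0.51 in replicate 1 and -0.49 in replicate 2.

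Krt8 and Krt18, the obligate type II and type I partners that form the first filaments of embryonic epithelia, moved together. The first Krt8 probe had processed signals of 28018 in control and 13851 in BIO in replicate 1, and of 27676 and 16942 in replicate 2. The Krt18 probe had 28778 and 13999 in replicate 1, and 27684 and 17747 in replicate 2. For both genes the BIO channel was below the control channel on each array, and the gap was wider in replicate 1. The log2 ratio was -0.91 ± 0.13 for Krt8 (SE, n = 2; limma adjusted p = 2.10e-03) and -0.89 ± 0.13 for Krt18 (SE, n = 2; limma adjusted p = 2.64e-03), which is 1.87-fold and 1.85-fold lower. The ratios differed between the arrays, with -1.12 in replicate 1 for both genes and -0.69 for Krt8 and -0.65 for Krt18 in replicate 2, but within an array the ratio of Krt8 minus that of Krt18 was only -0.01 and -0.04. The second Krt8 probe, printed above, read 11887 in control against 6660 in BIO in replicate 1, and 12358 against 7428 in replicate 2. It gave a log2 ratio of -0.81 ± 0.11 (limma adjusted p = 1.57e-03), so that both Krt8 probes were lower.

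Krt20, the type I keratin of mature superficial urothelial cells, was dim. Its processed signal was 23.6 in control against 8.14 in BIO in replicate 1, and 23.3 against 17.4 in replicate 2. The control channel was well above background on both arrays, and the BIO channel on replicate 2 only, where BIO was in the green channel. The log2 ratios of -0.54 and -0.19 gave a mean of -0.36 ± 0.12 (SE, n = 2), and the limma adjusted p was 0.0704.

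Among the basal and stratified keratins, the type I keratin Krt13 was the one that passed the test, and its probes disagreed. The first probe had processed signals of 521 in control and 341 in BIO in replicate 1, and of 566 and 390 in replicate 2. Both BIO values lay below both control values, and the log2 ratio was -0.60 ± 0.11 (SE, n = 2), or 1.52-fold lower, with a limma adjusted p of 6.15e-03. The second probe, toward the middle of the transcript, was not well above background in any of the 4 channels, with processed signals between 2.53 and 5.44. The first probe lies where the rod domain begins, the stretch that type I keratins share most closely, so that the gene behind this signal is uncertain.

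Krt5 and Krt14 form the filament pair of basal epithelial cells. The first Krt5 probe had processed signals of 20.8 in control and 23.3 in BIO in replicate 1, and of 25.7 and 31.6 in replicate 2. The Krt14 probe had 41.4 and 57.3 in replicate 1, and 47.4 and 64.9 in replicate 2. For each gene the BIO channel had the higher signal on both arrays, by less for Krt5. The log2 ratio was 0.09 ± 0.11 for Krt5 (SE, n = 2; limma adjusted p = 0.597) and 0.25 ± 0.11 for Krt14 (SE, n = 2; limma adjusted p = 0.134), and neither passed the threshold. The second Krt5 probe was not well above background in any channel. All 4 channels of the first Krt5 probe and of the Krt14 probe were well above background, but at low signal, where the offset added in background correction pulls ratios toward 0.

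Krt15, a type I keratin of basal cells, had processed signals of 11.8 in control and 7.27 in BIO in replicate 1, and of 46.9 and 21.0 in replicate 2. The replicates differed more from each other than did control from BIO, with the control of replicate 2 standing above the other channels. The BIO channel was well above background on replicate 2 only, and the log2 ratio was -0.40 ± 0.13 (SE, n = 2; limma adjusted p = 0.0636). Krt17, a type I keratin of basal and stressed epithelia, had signals of 9.70 in control and 11.2 in BIO in replicate 1 and of 4.93 and 11.1 in replicate 2. It was well above background in control on 1 array and in BIO on 1 array, which was too few for a test. For Krt15 and Krt20 alike the BIO channel fell below the detection limit where it was red, the color with the lower share of spots above background, and the part of the dye in these results was not tested.

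**Figure D2:**
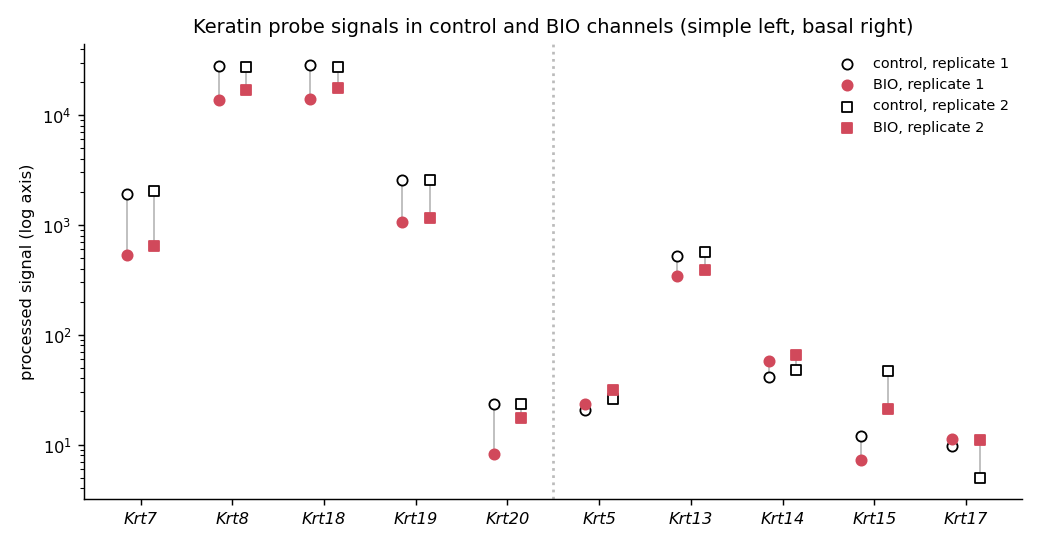
Processed signal (log axis) of the probe that stands for each keratin gene, in control (open) and BIO (filled) on replicate 1 (circles) and replicate 2 (squares), with a gray line joining the channels of an array. BIO lies below control on both arrays for all 5 simple keratins, Krt13 and Krt15, and above it for Krt5, Krt14 and Krt17. Signals of different probes are not comparable as transcript levels.

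A rule of size was set beside the test. Processed signals, centered on the median of each array, had to differ by a factor of 2 or more one way on the pair of arrays, and the brighter channel had to reach 100 on each. By this rule 2 of the 10 genes were lower with BIO, Krt7 and Krt19, against 2.04% of the 21598 genes. Control over BIO was 3.59-fold and 3.16-fold for Krt7 and 2.42-fold and 2.21-fold for Krt19. Krt8 with 2.02-fold and 1.63-fold and Krt18 with 2.06-fold and 1.56-fold reached the limit on replicate 1 only.

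The keratin genes lie in 2 clusters, with type I on chromosome 11 and type II on chromosome 15. Krt18 is the type I gene that lies in the type II cluster, next to its partner Krt8, and their probes were 35.1 kb apart in mm9. On chromosome 11 the probe of Krt15 was 10.8 kb from that of Krt13 and 9.0 kb from that of Krt19, and the 3 ratios of these neighbors were all below 0, with Krt19 the lowest. Krt14 lay 62.2 kb beyond Krt19, with a ratio above 0. On chromosome 15 Krt5, also above 0, lay between Krt7 and Krt8, at 284 kb and 290 kb.

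**Figure D3:**
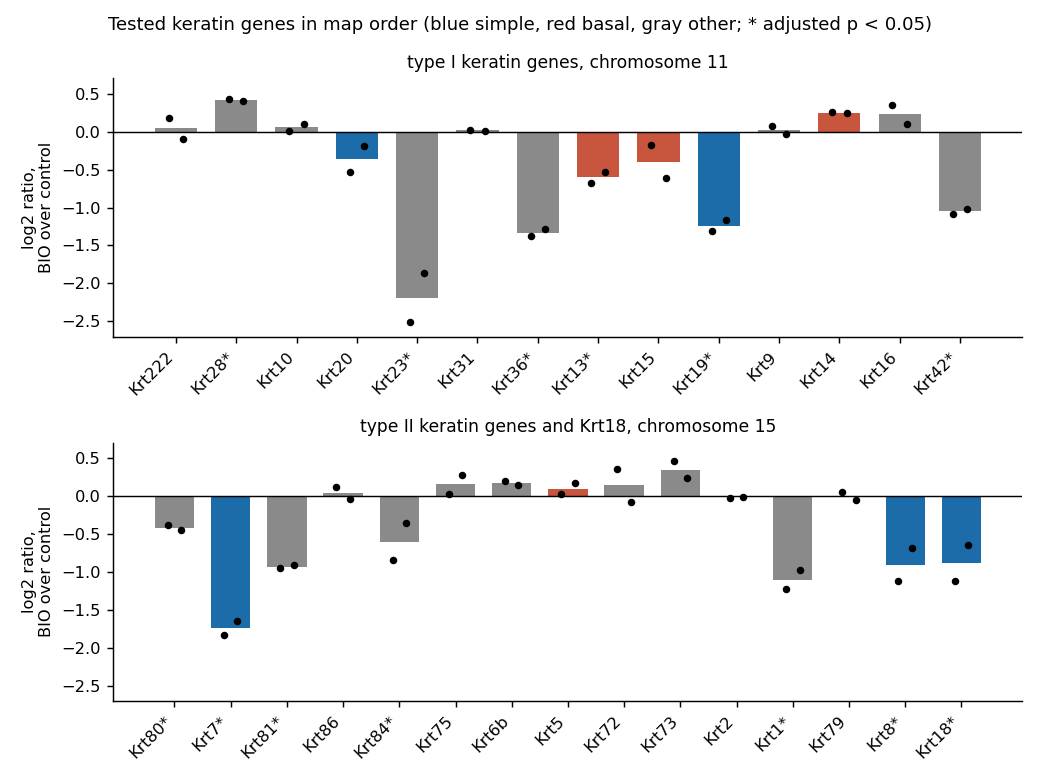
Mean log2 ratio of BIO over control (bars) and the ratio of each array (points) for the tested keratin genes with a mapped probe on chromosome 11 (top) or 15 (bottom), in map order without scale (blue, simple; red, basal and stratified; gray, other keratins; asterisk, adjusted p below 0.05). Lower genes stand beside genes near 0 in both clusters. Krt23 at -2.19 is the lowest bar.

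Of the 42 other keratins, 21 were tested, and 8 were lower and 1 was higher with BIO, with a median log2 ratio of 0.02. Krt23, a type I keratin, had the lowest log2 ratio at -2.19. Its control channels read 580 and 556, and its BIO channels 88.8 and 135. Krt36, a hair keratin, had a log2 ratio of -1.33, with its BIO channel well above background on 1 array. Krt1, a keratin of the suprabasal epidermis, had a ratio of -1.11, whereas its partner Krt10 had 0.06 and did not pass. Krt42, a type I keratin, had -1.05, with control signals of 554 and 585 and BIO signals of 261 and 287. The hair keratins Krt81 (-0.93), Krt84 (-0.60) and Krt85 (-0.47) and the type II keratin Krt80 (-0.42) were lower as well, and for Krt84 the BIO channel was well above background on 1 array. Hair keratins include near-identical copies, so that the gene behind such a signal is uncertain, and a second tested probe of Krt85 did not pass at -0.08.
Krt28, a keratin of the hair root sheath, was the one that was higher, at 0.41 with signals of 21.4 and 25.7 in control and 40.9 and 43.0 in BIO, while its second probe did not pass at 0.34. Krt2, Krt6b, Krt9, Krt16, Krt31, Krt72, Krt73, Krt75, Krt79, Krt86 and Krt222 did not pass either, with log2 ratios from -0.02 for Krt2 to 0.34 for Krt73.

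The bases before the transcription start are shown for Krt7, Krt8 and Krt18, which are the lower simple keratins with an entry in the RefSeq promoter table of GRCm38.p6. Each line holds the 250 bases before the start, 5′ to 3′ on the strand of the gene, and capitals mark matches to the motifs searched. These were the TATA box (TATAAA), the GC box bound by SP and KLF factors (GGGCGG), the TCF/LEF core of WNT target genes (CTTTGAT), the AP-1 site (TGANTCA) and the forkhead core (TGTTTAC), each on both strands.
Krt7, chr15:101412153-101412402, plus strand: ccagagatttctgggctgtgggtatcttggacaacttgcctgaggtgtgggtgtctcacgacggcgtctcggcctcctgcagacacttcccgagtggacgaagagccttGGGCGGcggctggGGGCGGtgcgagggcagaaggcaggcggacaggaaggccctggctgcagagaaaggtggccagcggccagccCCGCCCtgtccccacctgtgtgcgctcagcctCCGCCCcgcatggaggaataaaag
Krt8, chr15:102004343-102004592, minus strand: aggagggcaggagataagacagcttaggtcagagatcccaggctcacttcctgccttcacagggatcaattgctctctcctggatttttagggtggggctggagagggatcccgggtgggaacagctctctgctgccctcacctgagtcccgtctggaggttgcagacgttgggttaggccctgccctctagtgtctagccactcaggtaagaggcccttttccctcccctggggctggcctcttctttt
Krt18, chr15:102027966-102028215, plus strand: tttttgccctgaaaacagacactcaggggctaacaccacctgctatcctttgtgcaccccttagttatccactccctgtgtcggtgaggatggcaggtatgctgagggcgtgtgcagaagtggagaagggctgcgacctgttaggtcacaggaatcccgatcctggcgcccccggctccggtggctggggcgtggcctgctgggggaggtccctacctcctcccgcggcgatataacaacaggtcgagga
The Krt7 window held 4 GC boxes, between 141 and 24 bases before the start, and 32.7% of 32851 such windows of all genes held at least 1. None of the searched motifs was found in the windows of Krt8 and Krt18. The table held 7 of the 10 keratin genes in 8 windows. Beyond Krt7, the Krt20 window held a TATA box 29 bases before the start, as 12.4% of all windows held one, and both windows of Krt13 held AP-1 sites, as did 6.75%. No TCF/LEF core and no forkhead core was found in the 8 windows, and 3.21% and 3.17% of all windows held these. The absence of a match says only that these letters are not in this window.

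The labeled tissue was checked by markers. All 15 general epithelial markers, all 12 mesenchymal markers and all 8 endothelial markers were tested, so that each was well above background in at least 1 group on both arrays. Of the epithelial markers 4 were lower, none was higher and 11 did not pass, with a median log2 ratio of -0.23. Epcam, an adhesion molecule of simple epithelia, had processed signals of 4219 in control and 4299 in BIO in replicate 1, and of 3974 and 4155 in replicate 2. Its log2 ratio was 0.02 ± 0.11 (SE, n = 2; limma adjusted p = 0.907). The log2 ratio minus that of Epcam was -1.86 and -1.67 on the 2 arrays for Krt7, -1.35 and -1.18 for Krt19, -1.16 and -0.70 for Krt8, and -1.15 and -0.67 for Krt18. Among the markers that fell were Cdh1, the adherens junction cadherin, with -1.04 ± 0.11 (limma adjusted p = 4.86e-04), the splicing regulator Esrp2 with -1.15, and the protease inhibitor Spint2 with -0.46. Epcam stood near the top of the 15 markers, of which 10 were below 0 on both arrays and 2 above. Against Cdh1 the gaps were smaller, with -0.88 and -0.52 for Krt7 and only -0.36 and -0.03 for Krt19. Krt8 and Krt18 fell more than Cdh1 in replicate 1, less in replicate 2 and less in the mean, at -0.91 and -0.89. The summed processed signal of the 15 markers was 55433 and 59492 in control and 47614 and 45768 in BIO, against 61265 and 59947 in control and 29442 and 36500 in BIO for the 5 simple keratins. Most of each keratin sum was Krt8 and Krt18, with 28018 and 28778 in control of replicate 1, so the sum mainly follows these genes. The part of the epithelial share of the RNA in the keratin ratios was not tested.

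**Figure D4:**
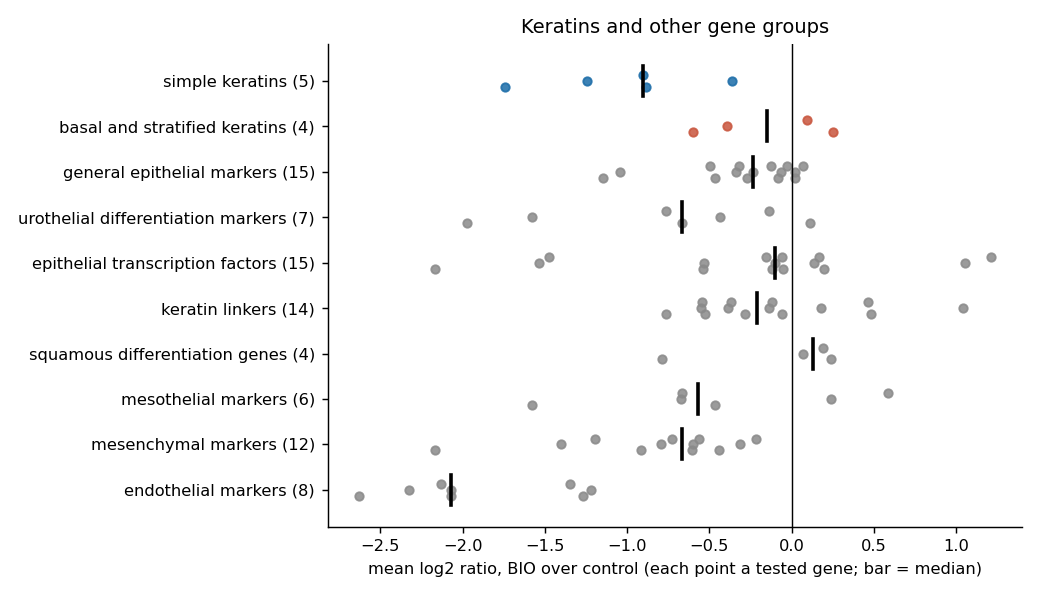
Mean log2 ratio of BIO over control for each tested gene of the keratin sets and of 8 other gene lists (number tested in brackets), with the median as a black bar. The medians were -0.91 for the simple keratins, -0.15 for the basal and stratified keratins, -0.23 for general epithelial markers and -0.67 for urothelial differentiation markers. For Upk1b (in the urothelial and mesothelial lists) and Dsc3 (a linker) one group was not well above background, so their points are no measured folds.

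Of the 7 genes listed as urothelial differentiation markers, 5 were lower, with a median log2 ratio of -0.67. Upk3a, a uroplakin of the luminal membrane plaques, had signals of 241 and 175 in control and of 38.8 and 28.7 in BIO, with a log2 ratio of -1.98. Upk1b, another uroplakin, had 61.8 and 82.7 in control and was not well above background in BIO on either array. It was at least 2.85-fold lower with BIO (limma adjusted p = 8.50e-05). The calcium-binding protein S100a1, with -0.76, and the uroplakin Upk3b, with -0.67 and its BIO channel well above background on 1 array, were lower as well. Also counted as lower was the hedgehog ligand Shh, with -0.43. Shh is a signal of the still undifferentiated ureteric epithelium and not a marker of differentiation. The uroplakins Upk1a and Upk2 did not pass. Upk1a had signals of 450 and 468 in control and of 483 and 569 in BIO, with a log2 ratio of 0.11. Upk2 was dim, with log2 ratios of 0.19 in replicate 1 and -0.47 in replicate 2. Of the squamous differentiation genes 4 of 9 were tested, and Lor, which encodes the cornified envelope protein loricrin, fell by 0.79 while none was higher.

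Transcription factors tied to epithelial and keratin gene expression moved in both directions, with 5 of 15 lower, 2 higher and a median log2 ratio of -0.10. Foxa1, a forkhead factor, had signals of 11882 and 11982 in control and of 2020 and 3593 in BIO, with a log2 ratio of -2.17 ± 0.19 (SE, n = 2; limma adjusted p = 2.11e-04). The nuclear receptor Pparg, with -1.54, the ETS factor Ehf, with -1.48, and the zinc finger factors Ovol1, with -0.54, and Klf4, with -0.53, also fell. Tfap2c, an AP-2 factor, rose by 1.21 and the grainyhead factor Grhl3 by 1.05. Trp63, a p53 relative, marks both basal and intermediate cells of the urothelium. Its brightest probe had signals of 1612 and 1966 in control and of 1634 and 1855 in BIO. By this probe the log2 ratio of Trp63 was -0.05 (limma adjusted p = 0.799). Its 3 other probes were lower, at -1.98 and -0.79 for the 2 with BIO above background on at least 1 array, so that the probes of Trp63 disagree.

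Keratin filaments are anchored at desmosomes and hemidesmosomes. Of 16 genes of these junctions and linkers, 14 were tested, 5 were lower, 3 were higher and the median log2 ratio was -0.21. The plakin Evpl had -0.76, the desmosomal cadherin Dsc2 had -0.55 and the hemidesmosome integrin Itgb4 had -0.55. The plakins Ppl, with -0.39, and Dsp, which ties keratins to desmosomes, with -0.37, were also lower. Eppk1, a plakin that binds keratin filaments, rose by 1.04, with control signals of 87.9 and 76.7 and BIO signals of 190 and 234. The hemidesmosome plakin Dst rose by 0.46, and the desmosomal cadherin Dsc3 was higher from a control below background.

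Other intermediate filament genes changed too, with 6 of 13 lower and 2 higher. Log2 ratios were -1.16 for the muscle filament gene Des, -0.66 for Nes, of progenitor cells, -0.61 and -0.58 for the neurofilament genes Nefm and Nefl, and -0.56 for Vim, the filament of mesenchymal cells. The nuclear lamina genes Lmnb1 and Lmnb2 rose by 0.47 and 0.39. The mesothelium, the outer lining of organs, also holds simple keratins. Of 6 genes listed as its markers 4 were lower, Upk1b, Upk3b, Gpm6a at -0.67 and Msln at -0.47, and Wt1 was higher at 0.58. Upk1b and Upk3b are also in the urothelial list. In RNA of whole ureters, the values of these 6 genes cannot be assigned to the mesothelium. The summed signal of these 6 was 3119 and 3160 in control and 3157 and 4857 in BIO. Most of each sum was Wt1, with 2156 and 2056 in control and 2559 and 4031 in BIO, so the sum mainly follows that gene. Of the mesenchymal markers 10 of 12 were lower and none was higher, with a median of -0.67 and Pdgfrb, a receptor of perivascular mesenchyme, lowest at -2.17. Of the endothelial markers all 8 were lower, with a median of -2.07 and the VEGF receptor Kdr lowest at -2.63. The part of these cell types in the keratin ratios was not tested.

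The keratin ratios were recomputed under 7 other ways of processing. Krt7, Krt8, Krt13, Krt18 and Krt19 were below 0 in each, as were Krt15 and Krt20, and Krt5 and Krt14 were above 0 in each. With the processed signals in place of loess-normalized ones, Krt7, Krt8 and Krt19 passed, at adjusted p of 0.0354, 0.0496 and 0.0354, while Krt13 and Krt18 did not, at 0.0548 and 0.0601. In the deposited scores, rounded to 1 decimal, none of the 5 passed, with adjusted p from 0.0546 for Krt19 to 0.197 for Krt18, whereas Krt5 and Krt14 passed as higher at 0.0342. The log2 ratios in the scores were 0.26 for Krt5 and 0.49 for Krt14, each equal on the 2 arrays after rounding, as for 19.9% of all probes tested.

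**Figure D5:**
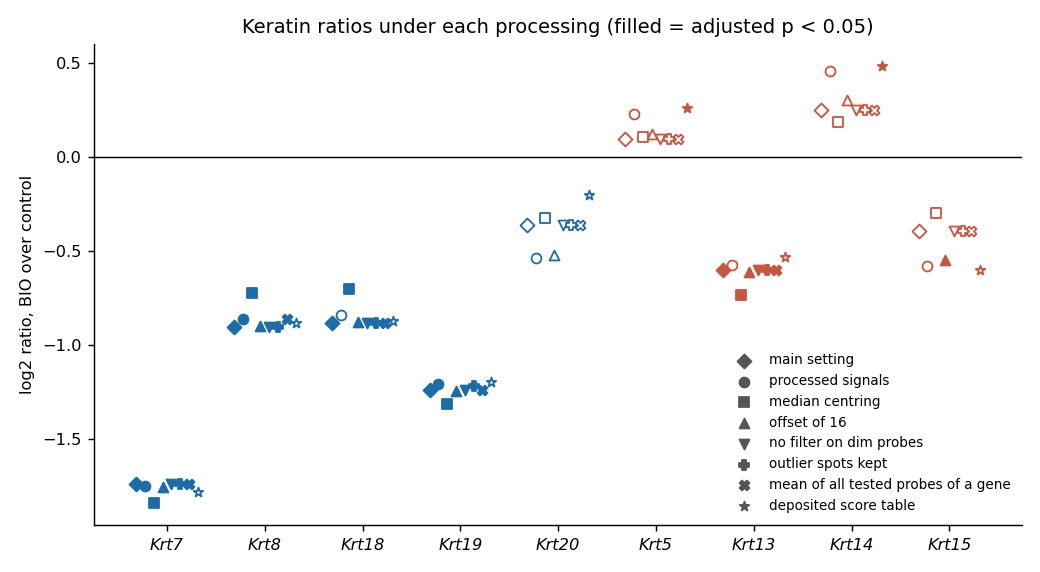
Mean log2 ratio of BIO over control for the 9 tested keratin genes under the main processing and 7 alternatives (symbols), filled where the adjusted p was below 0.05. The direction of every gene is the same in all, while calls differ for the processed signals, the deposited scores and, for Krt15, an offset of 16 in background correction.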

How the data were processed

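Per the file headers, the authors scanned 2-color Agilent arrays and quantified them with Feature Extraction 10.7.3.1, and probe coordinates are in mm9. The deposited scanner tables hold mean spot intensity and local background intensity, which were not normalized, and a processed signal intensity, which the software had background-subtracted and dye-normalized. A deposited table of 1 score per probe and array behaves as the fold between BIO and control, signed by its direction, with a median of 1 on both arrays, and its making is not given in the sources used here. Per the labels, BIO was in the red channel of replicate 1 and in the green channel of replicate 2.

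Intensities were corrected by normexp (offset 50) and normalized by loess within each array in limma 3.58.1 (R 4.3.3), without control and outlier spots, and the 4 spots of a probe were averaged. The offset pulls ratios of dim probes toward 0. Probes well above background (over a share of 0.5 of spots) in control or in BIO on both arrays were tested, 28824 in all, and lmFit and eBayes gave a two-sided test of each log2 ratio against 0, adjusted by Benjamini-Hochberg over these probes, at 0.05. The brightest tested probe stood for a gene. For the rule of size, processed signals were raised to a floor of 15. For a group below background, a bound was taken from the lowest signal well above background, after quantile scaling of the arrays, and is open to dye bias in part. With 2 arrays, both on 1 slide, the number of arrays limits precision, and the median SE of a log2 ratio was 0.111. Each SE was moderated by eBayes toward the variance of all probes tested. The steps were tested on simulated data.

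The keratins, the gene lists and the motifs were chosen with earlier results of these data known. Named were all 10 keratins with every probe, every tested other keratin, at most 4 genes past the threshold in each other list by size, and Epcam, Cdh1, Trp63, Upk1b and Vim. Outside this rule Ovol1, Klf4, Grhl3, Ppl, Dsp, Dst, Dsc3, Shh, Msln, Lmnb1 and Lmnb2 were named after their values were seen, to account for small counts. Upk1a and Upk2, which did not pass, were also named after their values were seen. Genes carry the names in the files. Of the general epithelial markers, 1 that was lower is not reported here by name.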

Additional observations from a re-analysis of the deposited data

How the results depend on the processing

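The alternatives were processed signals, median centering, an offset of 16, no filter on dim probes, outlier spots kept, the mean of all tested probes of a gene and the deposited scores. Of the 10 keratins, 5 changed in the main processing, 3 with processed signals and 2 with the scores, and the 2 were Krt5 and Krt14, which had not passed before. The other alternatives gave 5 or 6, the latter with an offset of 16, where Krt15 passed at an adjusted p of 0.0462. The median log2 ratio of the simple keratins ranged from -0.91 to -0.73 over these alternatives, and was -0.69 without replicate 1 and -1.12 without replicate 2. That of the basal and stratified keratins was -0.15, from -0.21 to -0.10 under 6 alternatives, and 0.0945 without the filter on dim probes, which adds Krt17. It was -0.18 without replicate 1 and -0.08 without replicate 2. By the rule of size 2 keratins were lower, 4 at a minimum of 1.5-fold and 1 at 3-fold, and between 2 and 4 when 1 replicate was left out, 4 without replicate 2, where Krt8 and Krt18 passed as well. The share of all genes under these other settings is not given here. Only the count of 2 can be set beside its share, which was 2.04%. Over all genes, 5160 changed in the main processing, 2769 with median centering, 1928 with processed signals and 3251 with the scores, and of these 3186, 1941, 1126 and 1320 were lower with BIO. The total was 4496 with an offset of 16, 5415 with outlier spots kept and 5656 with the mean of all tested probes. Without the filter on dim probes it was 4708 of 29913 genes tested, against 21598 tested in the main processing. The test is itself paired, since each ratio sets BIO against control within an array, and no further replicate block could be fitted. The low signals of Krt5, Krt15, Krt17 and Krt20 limit what can be measured for them. With 2 replicates the leave-one-out values carry no test.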
